A study of Mus musculus with 6 samples.

Results

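RUNX1 is the DNA-binding subunit of core binding factor and the N-terminal part of AML1-ETO, the fusion protein whose truncated form AE9a drives the mouse leukemia studied here. The genes described are 10 transcription regulators of blood formation: Runx1 and its fusion partner Runx1t1, the other core binding factor genes Runx3 and Cbfb, the stem and progenitor cell factors Gata2, Tal1 and Myb, the myeloid factors Cebpa and Gfi1, and Mitf. They were chosen by symbol, and each matched 1 of the 23608 rows of the count table.

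Bulk RNA-seq was performed on 6 libraries, 3 labelled oil and 3 labelled tamoxifen. All 6 came from Usp18+/f UBCER-Cre AE9a leukemia cells, so both groups carried a floxed Usp18 allele, the Cre and the fusion gene. Cells were sorted as GFP+ Lin- c-Kit+ from the spleens of recipient mice at 3 days after the first injection of oil or tamoxifen, and the question of the comparison was what heterozygous depletion of Usp18 changes. The Cre stands under the ubiquitin C promoter, which is active in most cell types, and AE9a was delivered with a GFP retrovirus to fetal liver cells that were then passaged through irradiated recipients. The recipients were C57BL/6 mice. The labels call the libraries biological replicates and give no animal age.

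Core binding factor is a dimer of a RUNX protein, which reads DNA, and CBFB, which steadies it there. AML1-ETO keeps the DNA-binding part of RUNX1 and joins it to RUNX1T1, an adaptor for co-repressors, so that RUNX target genes are held down and myeloid maturation is blocked. GATA2, TAL1 and MYB act with RUNX1 on stem and progenitor cell enhancers, C/EBP-alpha and GFI1 drive granulocyte formation, and MITF, best known from melanocytes, works with GATA2 in mast cells.

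Library totals ranged from 17118964 to 20741399 counts, and 3 counts corresponded to between 0.145 and 0.177 CPM (a gene's counts divided by its library's TMM-scaled total). Tamoxifen 4 stood apart from the other tamoxifen-labelled libraries. On the first principal component, which held 65.1% of the variance, it scored -2.99, against 37.3 and 47.5 for tamoxifen 1 and 2 and -31.1 to -23.4 for the oil-labelled libraries. For this reason the calls are given with and without it. Tamoxifen 4 was singled out for lying toward the oil-labelled libraries, so leaving it out tends to widen the differences and narrow the tamoxifen spread. Calls without it therefore describe the remaining libraries and are not separate support. Usp18, the targeted gene, measured 9.12, 10.95 and 11.2 CPM in the oil-labelled and 15.1, 27.99 and 19.4 CPM in the tamoxifen-labelled libraries, a log2 fold change of 0.998 ± 0.23 (SE, n = 3 per group, edgeR quasi-likelihood test, Benjamini-Hochberg adjusted p = 0.0739). This direction goes against a depletion, although a count over the whole gene does not show whether the floxed part was lost, and the groups are named by their labels throughout. Kit, the sorted surface receptor, was at 439 to 451 CPM under oil and 447 to 781 CPM under tamoxifen. Of the markers of lineages that the sort should remove, 7 of 9 T and NK cell genes, 4 of 8 B cell genes and 2 of 8 neutrophil genes were at 0 in all 6 libraries. The summed level of each of those lists stayed at or under 1.372 CPM. Erythroid markers were abundant, at a summed level of 4593 to 6915 CPM under oil and 3687 to 8141 CPM under tamoxifen. Differences in bulk RNA can reflect either the share of cells that express a gene or the RNA per cell, which cannot be told apart here.

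Promoters of Mitf, Runx1 and Runx3 are shown first because these were the members with the smallest p-values. Mitf promoters 2 and 3 and Runx3 promoter 2, with 0 matches each to the RUNX motif given below, are not shown. RefSeq start sites on GRCm38.p6 were available for 9 of the 10 members, with 16 promoters in all. Each sequence is the 250 bases before the start on the gene's own strand, 5′ to 3′, at chr6:97806808-97807057 (plus strand) for Mitf promoter 1, chr16:92826075-92826324 and chr16:92697330-92697579 (minus strand) for Runx1 promoters 1 and 2, and chr4:135120395-135120644 (plus strand) for Runx3 promoter 1. Capitals mark matches to the RUNX motif TGTGGT on either strand.
Mitf promoter 1: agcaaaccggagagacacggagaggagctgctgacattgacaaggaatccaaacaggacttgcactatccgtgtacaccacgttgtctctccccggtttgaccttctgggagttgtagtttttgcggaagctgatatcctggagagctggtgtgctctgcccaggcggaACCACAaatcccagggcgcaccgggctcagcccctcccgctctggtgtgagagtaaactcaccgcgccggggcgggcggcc
Runx1 promoter 1: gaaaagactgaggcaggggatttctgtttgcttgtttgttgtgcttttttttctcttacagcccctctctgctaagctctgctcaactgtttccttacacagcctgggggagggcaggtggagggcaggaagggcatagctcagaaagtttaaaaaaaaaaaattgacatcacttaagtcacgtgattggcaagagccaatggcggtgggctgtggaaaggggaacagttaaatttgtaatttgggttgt
Runx1 promoter 2: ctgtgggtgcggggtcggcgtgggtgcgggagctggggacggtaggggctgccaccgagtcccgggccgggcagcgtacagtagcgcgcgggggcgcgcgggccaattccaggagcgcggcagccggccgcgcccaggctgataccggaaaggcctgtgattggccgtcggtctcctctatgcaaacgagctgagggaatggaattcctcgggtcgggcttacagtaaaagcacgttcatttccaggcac
Runx3 promoter 1: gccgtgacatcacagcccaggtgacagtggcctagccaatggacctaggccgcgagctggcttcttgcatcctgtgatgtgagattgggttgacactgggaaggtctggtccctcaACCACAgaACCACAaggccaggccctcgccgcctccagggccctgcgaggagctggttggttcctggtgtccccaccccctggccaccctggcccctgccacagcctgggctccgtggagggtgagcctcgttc
The RUNX motif stood once in Mitf promoter 1, at -81, and at -134 and -126 in Runx3 promoter 1, and in neither Runx1 promoter. It was held by 2 of the 16 member promoters (12.5%), against 14.0% of 32851 mouse promoters of the same length.
The GATA motif AGATAA was held by 1 member promoter, Tal1 promoter 1 at chr4:115056176-115056425 (plus strand), where the capitals mark its reverse complement at -205. Over all promoters 9.99% held this motif.
Tal1 promoter 1: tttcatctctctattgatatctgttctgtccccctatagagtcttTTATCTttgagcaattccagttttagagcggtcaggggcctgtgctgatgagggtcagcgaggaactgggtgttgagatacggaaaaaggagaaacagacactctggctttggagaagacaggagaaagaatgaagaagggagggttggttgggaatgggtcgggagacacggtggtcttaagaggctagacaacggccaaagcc
Other motifs were also searched on both strands. They were the E-box CANNTG, the M-box CATGTG, the interferon response element core (GAAA, any 2 bases, GAAA) and the gamma-activated site TTCNNNGAA. The M-box is also an E-box and is among the sites MITF binds, not the only one. The E-box was held by 5 member promoters (31.2%, against 66.2% of all), and the last 3 motifs by 0 of 16, against 12.3%, 2.98% and 7.02% of all promoters. These are letter matches in a window and say nothing of binding. The Runx1 promoters differed in base composition: the distal promoter 1 was 45.6% GC with 2 CpG dinucleotides and the proximal promoter 2 was 67.6% GC with 27, where the median over all promoters was 52.4% and 6.

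Mitf, the basic helix-loop-helix leucine zipper factor of melanocytes and mast cells, was the member that passed the test. It spans 97807052 to 98021349 on the plus strand of chromosome 6 (mm10). Mitf measured 62.0, 58.7 and 60.9 CPM in oil 1, 3 and 4 and 114, 105 and 79.3 CPM in tamoxifen 1, 2 and 4. The groups did not overlap, and the oil-labelled libraries lay close together while tamoxifen 4 was the lowest of its group. From 60.5 ± 1.66 to 99.3 ± 17.8 CPM (SD, n = 3 each), Mitf rose 1.64-fold, a log2 fold change of 0.71 ± 0.13 (SE, 95% confidence interval 0.41 to 1.02, edgeR adjusted p = 0.0434). Of all tested genes, 7.65% had a larger log2 fold change. The Mitf call was close to the threshold. It was lost with limma-voom (0.70, adjusted p = 0.0689), with genes limited to a mean of at least 50 counts (0.73, adjusted p = 0.0522), with the replicate block (0.63, adjusted p = 0.0782), and without any single library other than tamoxifen 4, with adjusted p from 0.128 (tamoxifen 1 left out, log2 fold change 0.61) to 0.209 (oil 1 left out, 0.73). Without oil 3, without oil 4 and without tamoxifen 2 the adjusted p was 0.190, 0.183 and 0.130. Without tamoxifen 4 it was 6.18e-05 at a log2 fold change of 0.85, and with the DESeq2 Wald test 0.000238. Its fold change was positive in each of the 13 refits, given with the limits at the end. The replicate block matched libraries by number. Oil 3 and tamoxifen 2 had no match there, so that fold change rests on libraries 1 and 4 of each group.

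**Figure D1:**
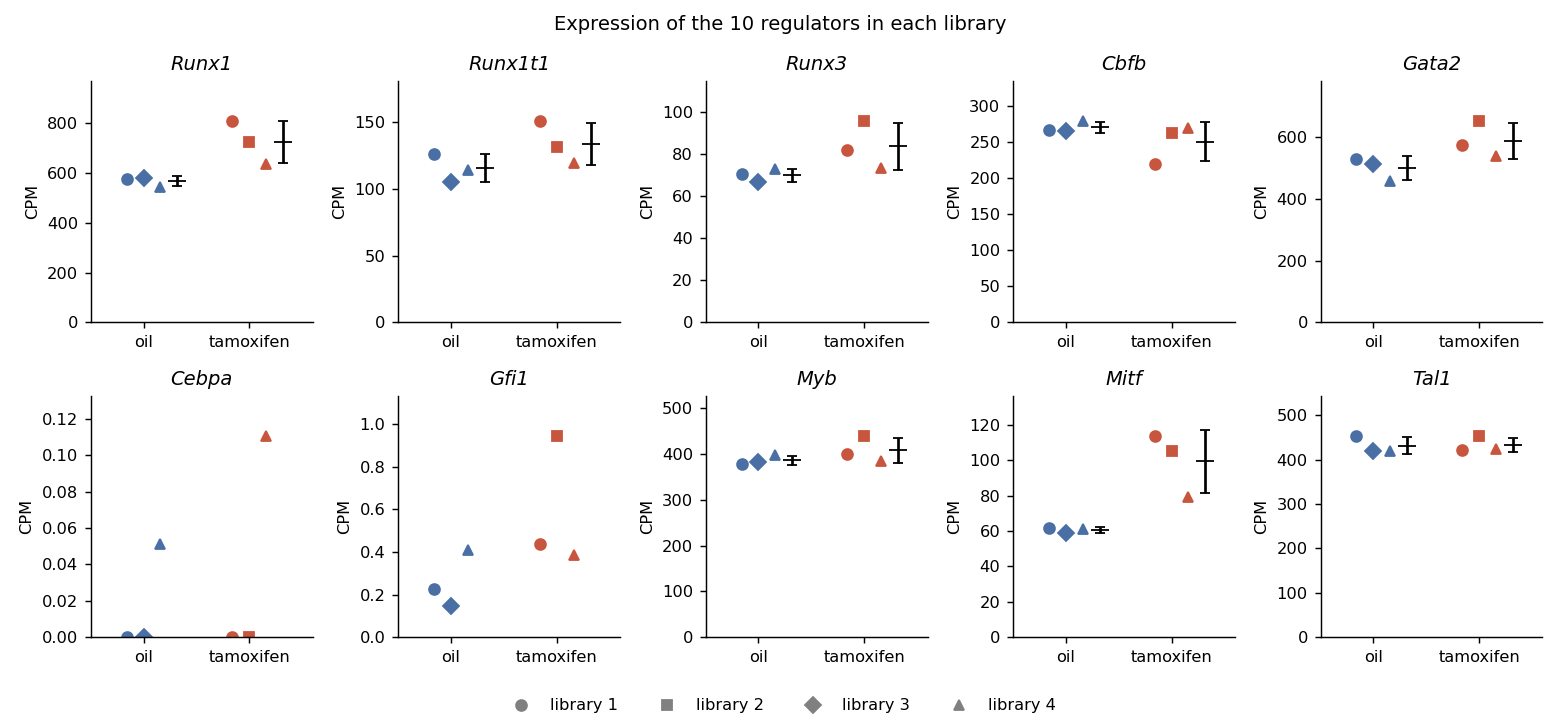
CPM of each of the 10 genes (vertical axes, each from 0) in the oil-labelled (blue) and tamoxifen-labelled (red) libraries, with marker shape for the library number and bars for mean ± SD of the 8 tested genes. The 3 tamoxifen points of Mitf, 79.3 to 114 CPM, all lie above its 3 oil points, 58.7 to 62.0 CPM.

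Runx1, the gene of the fusion's DNA-binding part, lies at 92601466 to 92826149 on the minus strand of chromosome 16. It measured 577, 582 and 545 CPM under oil and 809, 726 and 638 CPM under tamoxifen. The groups did not overlap, and again tamoxifen 4 was nearest to oil. The means were 568 ± 20.0 and 724 ± 85.3 CPM (SD, n = 3 each), a ratio of 1.27 that missed the edgeR threshold (log2 fold change 0.35 ± 0.11 SE, 95% confidence interval 0.11 to 0.59, adjusted p = 0.134). With DESeq2 the adjusted p for Runx1 was 0.0386, and without tamoxifen 4 in edgeR it was 0.00169 with a log2 fold change of 0.43. Since AE9a itself carries RUNX1 and RUNX1T1 sequence, reads from the retroviral fusion and from the mouse's own Runx1 and Runx1t1 cannot be told apart in this table.

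Runx1t1, the co-repressor adaptor known as ETO, lies at 13743436 to 13893649 on the plus strand of chromosome 4. It measured 127, 106 and 114 CPM under oil and 151, 132 and 119.8 CPM under tamoxifen. Tamoxifen 4 lay below oil 1, so the groups overlapped. Runx1t1 had a log2 fold change of 0.22 ± 0.11 (SE, 95% confidence interval -0.05 to 0.48, edgeR adjusted p = 0.312), and without tamoxifen 4 it was 0.29 (adjusted p = 0.0375). Reads of Runx1t1 per read of Runx1 stayed in a narrow band, at 0.219, 0.182 and 0.209 under oil and 0.187, 0.181 and 0.188 under tamoxifen. These ratios overlapped (0.203 ± 0.0196 against 0.185 ± 0.00355, SD, two-sided exact permutation p = 0.3, adjusted over 5 ratios 0.375).

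Runx3, the RUNX gene of T and NK cell programs, lies at 135120652 to 135177990 on the plus strand of chromosome 4. It measured 70.5, 66.6 and 72.9 CPM under oil and 82.3, 95.7 and 73.3 CPM under tamoxifen. The groups did not overlap, though tamoxifen 4 exceeded oil 4 by under 1 CPM. The log2 fold change of 0.26 ± 0.11 (SE, 95% confidence interval 0.000536 to 0.52) had an unadjusted p of 0.0496 and an edgeR adjusted p of 0.242. Without tamoxifen 4 it was 0.35 (adjusted p = 0.0123). The other member of the family, Runx2, known for bone, was a gene of the RUNX list outside the 10. It measured 11.5, 9.60 and 9.47 CPM under oil and 24.4, 20.5 and 10.3 CPM under tamoxifen, with tamoxifen 4 within the oil range (log2 fold change 0.85 ± 0.29 SE, edgeR adjusted p = 0.176, and 1.14 with adjusted p = 0.00045 without tamoxifen 4).

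Cbfb, the shared non-DNA-binding subunit, was the member with the negative fold change. The gene lies at 105170674 to 105217989 on the plus strand of chromosome 8. It measured 267, 266 and 279 CPM under oil and 219, 264 and 269 CPM under tamoxifen, so tamoxifen 4 lay within the oil range, tamoxifen 2 just under it and tamoxifen 1 well under it. Cbfb had a log2 fold change of -0.11 ± 0.10 (SE, 95% confidence interval -0.34 to 0.12, edgeR adjusted p = 0.523), and -0.16 without tamoxifen 4 (adjusted p = 0.162). Runx1 counts were set against Cbfb counts within each library. Runx1 counts may include reads of the fusion, so the ratio need not give the balance of the mouse's own subunits. Runx1 counts per Cbfb count were 2.16, 2.19 and 1.95 under oil and 3.69, 2.76 and 2.37 under tamoxifen. The groups did not overlap, and the mean ratio was 2.10 ± 0.129 against 2.94 ± 0.677 (SD, n = 3 each, two-sided exact permutation p = 0.1, the smallest that 3 against 3 allows, and 0.167 adjusted over 5 ratios). Runx3 counts per Runx1 count overlapped (0.123 ± 0.00967 under oil, 0.116 ± 0.0151 under tamoxifen, exact permutation p = 0.5, adjusted 0.5).

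**Figure D2:**
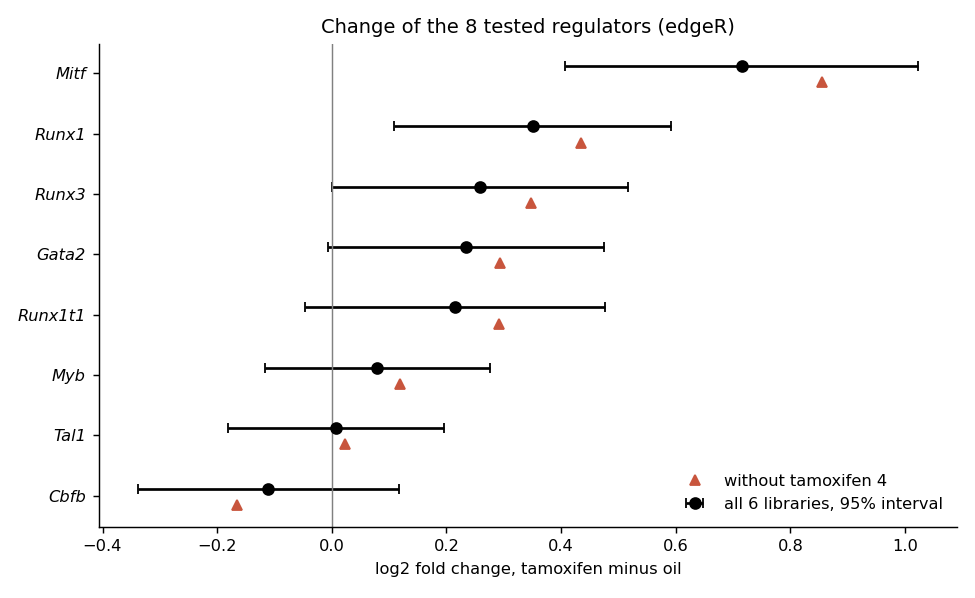
Log2 fold change (tamoxifen minus oil, horizontal axis) of the 8 tested genes, with black points and 95% confidence intervals from all 6 libraries and red triangles for the fit without tamoxifen 4. The Mitf interval, 0.41 to 1.02, lies farthest from 0, and each triangle lies farther from 0 than its point.

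Gata2, a zinc finger factor of stem and progenitor cells and of mast cells, lies at 88193891 to 88207032 on the plus strand of chromosome 6. It measured 530.3, 514 and 457 CPM under oil and 573, 652 and 539.8 CPM under tamoxifen. The groups did not overlap, with oil 1 and tamoxifen 4 almost touching. Gata2 had a log2 fold change of 0.23 ± 0.10 (SE, 95% confidence interval -0.01 to 0.47, edgeR adjusted p = 0.253), and 0.29 without tamoxifen 4 (adjusted p = 0.0242). Mitf counts per Gata2 count were 0.117, 0.114 and 0.133 under oil and 0.198, 0.161 and 0.147 under tamoxifen, 0.121 ± 0.0103 against 0.169 ± 0.0264 (SD, exact permutation p = 0.1, adjusted 0.167). The ranges did not overlap.

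Tal1, a basic helix-loop-helix factor of stem cells and the erythroid lineage, lies at 115056426 to 115071755 on the plus strand of chromosome 4. It measured 453, 420.0 and 420.1 CPM under oil and 422, 453 and 425 CPM under tamoxifen. The groups overlapped, with the highest value of each at 453 CPM. For Tal1 the log2 fold change was 0.01 ± 0.08 (SE, 95% confidence interval -0.18 to 0.20, edgeR adjusted p = 0.966), and 0.02 without tamoxifen 4 (adjusted p = 0.832). Tal1 counts per Gata2 count were 0.855, 0.818 and 0.919 under oil and 0.737, 0.695 and 0.787 under tamoxifen. This ratio was lower in each of the 3 tamoxifen-labelled libraries than in any oil-labelled library (0.864 ± 0.0513 against 0.7395 ± 0.0464, SD, exact permutation p = 0.1, adjusted 0.167).

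Myb, a factor of progenitor proliferation, lies at 21124935 to 21160984 on the minus strand of chromosome 10. It measured 378, 383 and 398 CPM under oil and 399.7, 439 and 385 CPM under tamoxifen. Tamoxifen 2 stood above the oil range, tamoxifen 1 just above it and tamoxifen 4 within it. For Myb the log2 fold change was 0.08 ± 0.09 (SE, 95% confidence interval -0.12 to 0.28, edgeR adjusted p = 0.599), and 0.12 without tamoxifen 4 (adjusted p = 0.213). Of the exonic bases of Myb, 559 (6.26%) are shared with the antisense gene Gm26577, and 106 bases (0.881%) of Runx1 with Gm26626. The strand setting of the counting was not given, so reads there cannot be assigned.

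**Figure D3:**
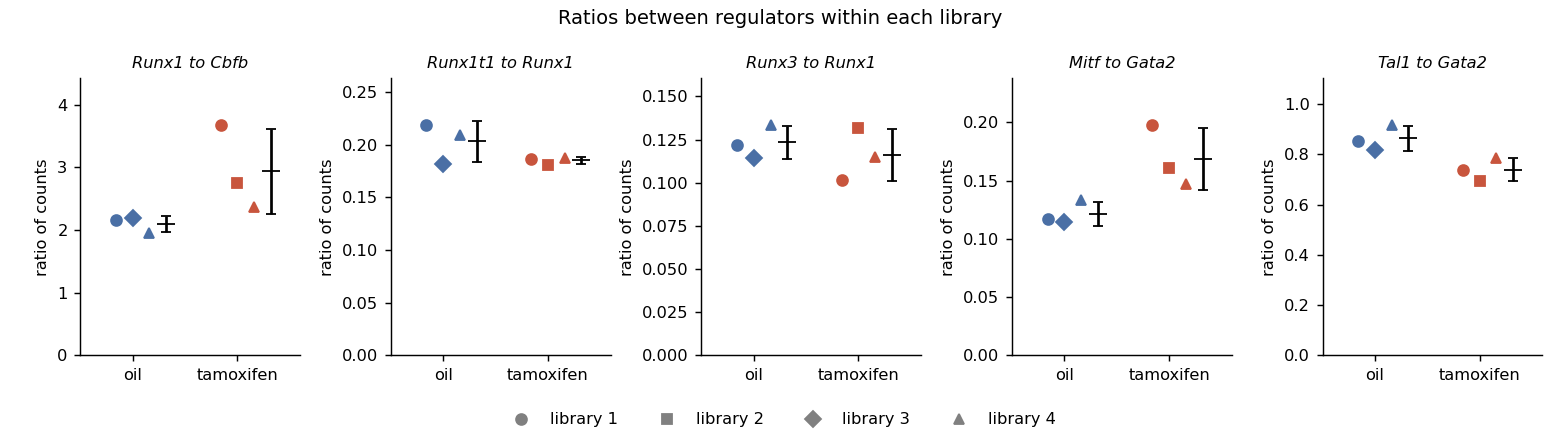
Ratios of the counts of pairs of genes within each library (vertical axes, each from 0) by group, with marker shape for the library number and bars for mean ± SD. The Runx1 to Cbfb ratio spans 1.95 to 2.19 under oil and 2.37 to 3.69 under tamoxifen. Counts of Runx1 and Runx1t1 may include reads of the fusion.

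The granulocyte factors were close to absent. Cebpa, the factor that AML1-ETO is known to repress, lies at 35119293 to 35121928 on the plus strand of chromosome 7 and had 0, 0 and 1 counts under oil and 0, 0 and 2 counts under tamoxifen, under the 3-count floor in each library. Gfi1, a repressor needed for neutrophils, lies at 107716657 to 107726036 on the minus strand of chromosome 5 and had 4, 3 and 8 counts under oil and 8.5, 15.5 and 7 under tamoxifen, or 0.145 to 0.412 and 0.387 to 0.945 CPM. The Gfi1 groups overlapped. Neither gene passed the low-count filter, so neither was tested, and a difference was not detectable at this depth. Gfi1b, the paralog of erythroid and megakaryocyte cells, was by contrast at 121 to 124 CPM under oil and 118 to 139.9 CPM under tamoxifen. Cebpe was at 0 in all libraries.

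Of the 10 genes, 8 were tested and 1 was called higher, where 1.75% of all 11614 tested genes were. None of the 8 was called lower, where 0.267% of all genes were; at an unadjusted edgeR p under 0.05, 3 were higher and 0 lower, where 20.6% of all genes passed in either direction. DESeq2 called 2 of the 8 (Mitf and Runx1, both higher), against 8.13% of all. The groups did not overlap for 4 of the 8 (Runx1, Runx3, Gata2, Mitf), against 25.1% of all. Without tamoxifen 4, edgeR called 5 higher (Mitf, Runx1, Runx3, Gata2, Runx1t1), where 19.2% of all genes were, and 0 lower, where 17.1% were. The median log2 fold change of the 8 was 0.225, against 0.000119 over all tested genes, and 7 of the 8 were positive. For all 8, tamoxifen 4 lay nearer to the oil mean than tamoxifen 1 and 2 did. Leaving it out thus moves each fold change away from 0 by the choice of library, and the 5 calls made without it are not separate support. The filter removed the 2 genes at the lowest level, so these counts describe the 8 that passed.

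Between genes, levels were compared as CPM per kilobase of annotated exon, averaged over the 6 libraries. The order was Gata2 at 100.8 ± 12.1, Tal1 at 98.7 ± 3.69, Cbfb at 74.96 ± 6.04, Runx1 at 53.8 ± 8.47, Myb at 44.4 ± 2.48, Runx1t1 at 15.7 ± 1.97, Runx3 at 15.4 ± 2.11, Mitf at 12.9 ± 3.89, Gfi1 at 0.133 ± 0.0876 and Cebpa at 0.0102 ± 0.0174 (SD, n = 6). This order pools the groups: under oil Tal1 (98.5) was above Gata2 (92.7), and under tamoxifen Gata2 (109) was above Tal1 (98.9). The ranges of Gata2 and Tal1 overlapped, as did those of Cbfb and Runx1, Runx1 and Myb, Runx1t1 and Runx3, and Runx3 and Mitf. The clear steps lay between Tal1 and Cbfb, between Myb and Runx1t1, and between Mitf and Gfi1. Gfi1 and Cebpa also did not overlap, by a margin under the 3-count floor. Gata2 exceeded 96.7% of tested genes on this scale and Mitf 61.1%. Divided by the longest annotated transcript instead, Runx1 (110.3) and Myb (108) stood above Tal1 (103) and Cbfb (90.2), so the order among those 4 depends on the gene model. The levels of Runx1 and Runx1t1 may also include reads of the fusion.

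**Figure D4:**
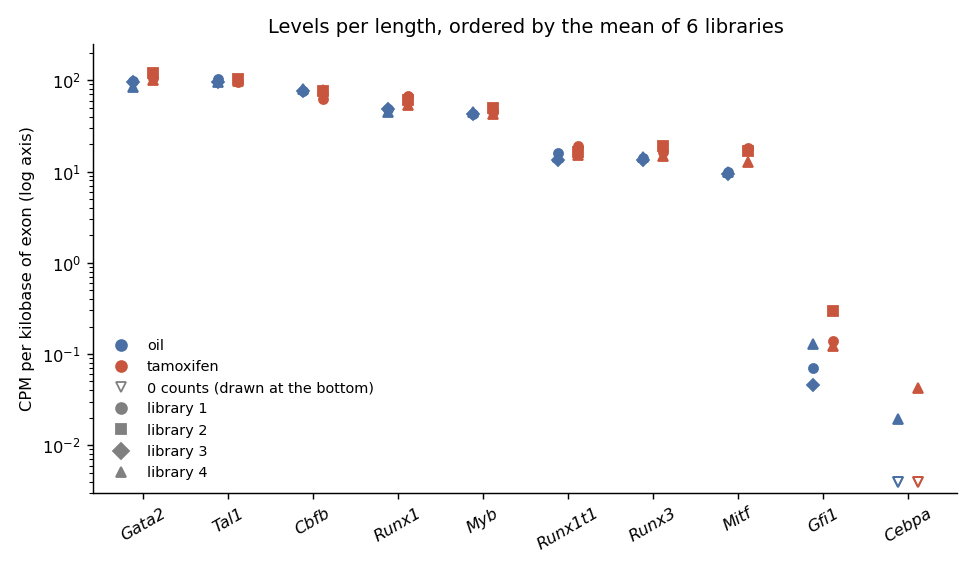
CPM per kilobase of exon (vertical log axis) for the 10 genes in order of their mean, by group (color) and library (marker shape), with open triangles at the bottom for libraries with 0 counts. Gata2 at 100.8 and Cebpa at 0.0102 mark the ends of the order.

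The known partners and complexes of these genes mostly stayed below the threshold. List counts are to be read against all tested genes, of which 1.75% were called higher, 0.267% lower and 25.1% did not overlap, and against 19.2% higher and 17.1% lower without tamoxifen 4. In the RUNX and Cbfb list edgeR called 0 of 4 tested genes, DESeq2 called 1, and 3 were higher at an unadjusted p under 0.05. Without tamoxifen 4, edgeR called 3 of them higher. Of 22 ETO family and co-repressor genes edgeR and DESeq2 called 0, with 2 higher and 3 lower at an unadjusted p under 0.05, and the median log2 fold change was -0.105. Cbfa2t2, an ETO paralog with one of the smallest p-values of the list, was at 42.8, 41.0 and 41.4 CPM under oil and 36.1, 33.8 and 35.1 CPM under tamoxifen (log2 fold change -0.25, edgeR adjusted p = 0.188). The Cbfa2t2 groups did not overlap. Without tamoxifen 4, 3 genes of this list were called higher and 5 lower.

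In the TAL1 and LMO2 complex edgeR called 0 of 13 genes, with 1 higher and 1 lower at an unadjusted p under 0.05 and the same counts called by DESeq2. Lmo2, the bridging protein of the complex, was at 183, 175 and 171 CPM under oil and 129, 118 and 147 CPM under tamoxifen (log2 fold change -0.43 ± 0.10 SE, edgeR adjusted p = 0.0768), while its relative Lmo4 was at 80.4, 81.4 and 82.7 against 135, 173 and 95.8 CPM (0.72 ± 0.19 SE, adjusted p = 0.0965). For neither gene did the groups overlap. Among 4 tested GATA and FOG genes edgeR called 0, with 1 higher and 1 lower at an unadjusted p under 0.05, and DESeq2 called 1 lower. Gata3, known from T cells, was at 119, 121 and 110 CPM under oil and 70.7, 64.5 and 91.9 CPM under tamoxifen (-0.62 ± 0.14 SE, adjusted p = 0.064), and Zfpm1, the GATA cofactor FOG1, at 137, 98.1 and 113 against 153, 195 and 121 CPM (0.43, adjusted p = 0.241). In these lists without tamoxifen 4, 2 genes were called higher and 4 lower in the TAL1 and LMO2 complex, and 2 higher and 2 lower among the GATA and FOG genes.

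In the C/EBP list Cebpb rose, as 1 of 6 tested genes. Cebpb, the C/EBP factor of emergency granulopoiesis and macrophages, was at 9.45, 7.37 and 9.06 CPM under oil and 14.3, 14.3 and 15.9 CPM under tamoxifen, with no overlap (log2 fold change 0.78 ± 0.16 SE, edgeR adjusted p = 0.0493, and 0.0067 without tamoxifen 4). With the replicate block its adjusted p was 0.287. Without tamoxifen 4, 2 genes of the list were called higher and 1 lower. In the MiT/TFE list Mitf was the 1 call of 7 tested genes, and its relatives Tfeb (log2 fold change 0.19, adjusted p = 0.544) and Tfe3 (-0.08, adjusted p = 0.634) did not pass. Without tamoxifen 4, Mitf was again the 1 call of this list. In the GFI1 complex and in the MYB list edgeR called 0 of 9 genes each, with 1 of each list lower at an unadjusted p under 0.05, and DESeq2 called 0 and 1. Without tamoxifen 4, 0 genes were called higher and 3 lower in each of these lists. The smallest p-values there belonged to Hdac1 (91.3, 86.9 and 91.1 against 70.0, 74.5 and 85.5 CPM, adjusted p = 0.239), Rcor1 (adjusted p = 0.296), Men1 (79.4, 73.3 and 79.0 against 53.3, 54.9 and 67.4 CPM, adjusted p = 0.111) and Kmt2a (adjusted p = 0.29). All 4 had negative fold changes. Among 20 tested genes of the other hematopoietic regulators edgeR called 0, DESeq2 called 1 higher and 1 lower, and 2 were higher and 1 lower at an unadjusted p under 0.05, with Klf1, the erythroid factor, at 371, 365 and 363 against 285, 312 and 301 CPM (-0.29, adjusted p = 0.105) and Ikzf2 at 141, 168 and 145 against 280, 280 and 170 CPM (0.69, adjusted p = 0.109). Without tamoxifen 4, 10 of these 20 were called higher and 1 lower.

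The mast cell genes, among which MITF and GATA2 have known targets, held more calls. Of 21 tested genes 20 were positive, 12 did not overlap, 3 were called higher and 0 lower, against 25.1% not overlapping, 1.75% higher and 0.267% lower over all genes. The median log2 fold change was 1.37. Fcer1a, the IgE receptor chain, was at 68.2, 98.0 and 85.7 CPM under oil and 355, 552 and 188 CPM under tamoxifen (log2 fold change 2.12 ± 0.35 SE, edgeR adjusted p = 0.0381). Tph1, the enzyme that starts serotonin synthesis, was at 224, 234 and 245 against 610, 803 and 401 CPM (1.37 ± 0.22 SE, adjusted p = 0.0342). Tpsb2, a tryptase whose reads may be shared with its close paralog Tpsab1, was at 0.113, 0.291 and 0.309 against 1.98, 8.92 and 2.43 CPM (adjusted p = 0.0402). Its oil values lie near the 3-count floor and it passed the low-count filter through the tamoxifen-labelled libraries, so no fold is given. Mrgprb2, Cma2 and Mcpt8 also passed through those libraries. Under oil they were at 0.0969 to 0.720, 0.291 to 1.18 and 0.485 to 0.900 CPM. They and Tpsb2 are among the 20 positive genes and the 12 that did not overlap. Those counts and the median therefore partly describe genes that entered the test through the group where they are high. The summed level of this list was 7973 to 8396 CPM under oil and 9185 to 18200 CPM under tamoxifen, and without tamoxifen 4 there were 18 genes called higher and 0 lower, against 19.2% and 17.1% of all genes. Other genes of the list did not pass with all libraries, among them Ms4a2, an IgE receptor chain, at 862, 909 and 917 CPM under oil and 829.6, 931 and 854 CPM under tamoxifen (log2 fold change -0.04, adjusted p = 0.807). Fcer1g, a further IgE receptor chain, was too low to be tested, at 0.103 to 0.394 CPM under oil and 0.236 to 0.608 CPM under tamoxifen. The part of the mast cell genes in the Mitf difference was not tested.

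Among 12 tested genes known as targets of RUNX1, MYB or C/EBP-alpha, 3 were called higher and 0 lower, and the median log2 fold change was 0.672. Without tamoxifen 4, 7 were called higher and 0 lower. Cd34, the progenitor surface sialomucin, was at 9.68, 8.43 and 11.7 CPM under oil and 113, 134 and 41.8 CPM under tamoxifen (log2 fold change 3.27 ± 0.41 SE, edgeR adjusted p = 0.0232). Cd48, a surface receptor of the SLAM family, was at 4.90, 7.66 and 8.13 against 29.1, 36.8 and 17.4 CPM (2.00 ± 0.30 SE, adjusted p = 0.0313). Itgal, the integrin alpha chain of LFA-1, was at 46.5, 51.4 and 51.0 against 134, 185 and 76.9 CPM (1.41 ± 0.27 SE, adjusted p = 0.0451). The calls for Cebpb, Fcer1a, Tph1, Tpsb2, Cd34, Cd48 and Itgal were each lost with limma-voom (adjusted p from 0.0545 to 0.111) and without any single library other than tamoxifen 4 (adjusted p from 0.0577 for Cd34 without tamoxifen 2 to 0.223 for Itgal without oil 1), and all 7 were called without tamoxifen 4. Their direction did not change with limma-voom, where the log2 fold change was 3.12 for Cd34, 1.95 for Cd48, 1.32 for Itgal, 1.31 for Tph1 and 0.79 for Cebpb. With genes limited to a mean of at least 50 counts, Cebpb (adjusted p = 0.0555) and Itgal (adjusted p = 0.0562) were no longer called and Tpsb2 was not tested. With the replicate block Cebpb was lost and the others stayed called, with edgeR adjusted p from 2.01e-06 (Cd34) to 0.00348 (Itgal and Tpsb2). Of the other target genes, Elane and Lcn2, which encode neutrophil granule proteins, and the receptor gene Flt3 were at 0 in all libraries, and Mpo, the myeloperoxidase gene, stayed at or under 0.236 CPM. The megakaryocyte markers had a summed level of 17.35 to 18.01 CPM under oil and 28.07 to 70.67 CPM under tamoxifen. Of 2 tested genes of that list, Itga2b, an integrin alpha chain of platelets, was called higher, at 4.84, 4.75 and 5.71 against 24.8, 51.0 and 11.7 CPM (log2 fold change 2.51 ± 0.48 SE, edgeR adjusted p = 0.0435). The Itga2b call was lost with limma-voom (adjusted p = 0.135), with the mean filter (0.0547) and without any single library other than tamoxifen 4. With the replicate block it was kept (edgeR adjusted p = 0.00138). The macrophage markers summed to 4.556 to 8.611 CPM and 7.07 to 15.0 CPM. Their part in the differences above was not tested.

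**Figure D5:**
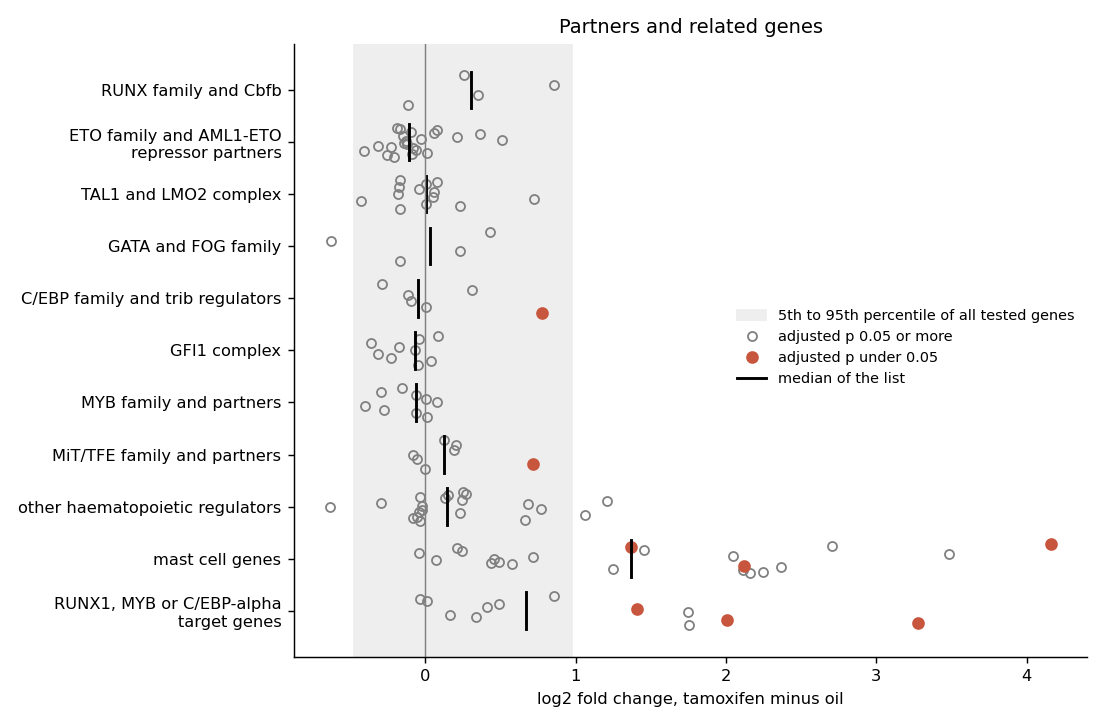
Log2 fold change (tamoxifen minus oil, horizontal axis) of each tested gene of 11 lists of partners and related genes, filled red where the edgeR adjusted p was under 0.05, with a black bar at the median of each list and a gray band for the 5th to 95th percentile of all tested genes, -0.471 to 0.974. The partner lists have medians from -0.105 to 0.304, and the mast cell list has its median at 1.37.

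The profiles of Mitf and Runx1 over the 6 libraries were then compared with those of all tested genes, by the root mean square difference of log2 CPM centered on each gene's mean. Nearest to Mitf were 1700020L24Rik (0.0483), Rassf5 (0.0728), which encodes a RAS and RAP1 effector, and Paqr8 (0.0754), where the standard deviation of Mitf itself was 0.42. Rassf5 was at 137, 147 and 144 CPM under oil and 247, 236 and 173 CPM under tamoxifen (edgeR adjusted p = 0.0649), the same order of groups and the same low tamoxifen 4 as Mitf. Nearest to Runx1 were Borcs5 (0.0392), Gatsl3 (0.0453) and Cdc14a (0.0473), where the standard deviation of Runx1 was 0.22. The edgeR adjusted p of these 6 genes ran from 0.0649 (Rassf5) to 0.349 (Gatsl3).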

How the data were processed

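The data were bulk RNA-seq of 6 libraries of sorted mouse AE9a leukemia cells, 3 labelled oil and 3 labelled tamoxifen. Estimated counts for each gene symbol, made from aligned reads, were deposited by the authors, not scaled between libraries, with 25.88 to 27.35% of the values in a library not whole. STAR, DESeq2 and mm10 are named in the submitters' processing notes; the counting program, strand setting and annotation are not given in the sources used here. All 6 columns were used (0 left out). By title the samples are oil 1, 2, 4 and tamoxifen 1, 3, 4, but by column oil 1, 3, 4 and tamoxifen 1, 2, 4. Libraries carry the column numbers, and oil 3 and tamoxifen 2 were used by group only. Of the 23608 rows, 26 had symbols turned into dates.

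Counts were rounded and tested in R 4.3.3 with edgeR 4.0.16 (filterByExpr by group, TMM, quasi-likelihood test, no block) over 11614 genes, with Benjamini-Hochberg adjustment over all of them and a threshold of 0.05. CPM used TMM-scaled totals. No pair of replicates agreed within sampling noise. The study's methods give 3 mice per group, all carrying cells of this leukemia. Ratios were compared by exact permutation tests in scipy 1.17.1, and the pairs were chosen after the values had been seen. Exon lengths and positions came from GENCODE M21 and promoters from RefSeq GRCm38.p6. Alternatives were DESeq2 1.42.0, limma-voom (limma 3.58.1), other scalings, filters and thresholds, a replicate block and each library left out. The code was tested on simulated data. The members and lists were chosen with earlier results of these data known. Genes named are the members, Usp18 and the 3 genes nearest in profile to Mitf and Runx1. From each list, up to 5 called genes are named, or otherwise the 2 with the smallest p. Other genes named (Gfi1b, Cebpe, Tfeb, Tfe3, Kit, Ms4a2, Fcer1g, Mrgprb2, Cma2, Mcpt8, Itga2b, Elane, Flt3, Lcn2, Mpo, Bcl2, Prtn3) were chosen after their values were seen. Some genes that this rule names are not reported here. The floor of 3 counts covers counting error alone, and reads counted without molecular identifiers may come from 1 molecule.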

Additional observations from a re-analysis of the deposited data

How the results depend on the processing

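The count of members called higher was 1 with all 6 libraries. It was 2 with the DESeq2 Wald test, and 0 with limma-voom (2 at an unadjusted p under 0.05), with a mean of at least 50 counts (4 unadjusted) and with the replicate block (1 unadjusted). It was also 0 with edgeR at stricter thresholds (adjusted p under 0.005 and an absolute log2 fold change over 0.5). The study set these for a volcano plot, on Wald test p-values with Benjamini-Hochberg adjustment. Mitf passed both thresholds with DESeq2 (log2 fold change 0.72, adjusted p = 0.000238). Leaving out each library in turn gave 0 to 5, with 5 without tamoxifen 4. No alternative called a member lower, and 0 members were lower at an unadjusted p under 0.05 in any refit. Over all genes, the 203 higher calls became 713 with DESeq2, 48 with limma-voom, 372 with no low-count filter, 120 with the mean filter and 7 at the stricter thresholds, and 8 to 2278 with each library left out. The 31 lower calls became 231, 6, 61, 17 and 0, and 0 to 2024. The cause of these differences was not tested.

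Among single members, Tal1 turned negative with no low-count filter (-0.000858), with the replicate block (-0.0429), without oil 3, without oil 4 and without tamoxifen 2, with values from -0.0236 (without tamoxifen 2) to 0.0431 (without oil 1) over the libraries left out. The log2 fold change of Runx1 stayed between 0.26 and 0.43, and that of Mitf between 0.61 and 0.85 (adjusted p from 6.18e-05 to 0.209), over the 13 alternatives. Other members kept their sign. With the replicate block, 215 genes were called higher and 26 lower, and beyond Mitf it changed no other member's call. Oil 3 and tamoxifen 2 stand alone in their blocks, so this fit takes its fold changes from libraries 1 and 4 of each group. The libraries share only a number: the deviations of the libraries numbered 1 and of those numbered 4 correlated at -0.127 and 0.0616. Per kilobase of the longest transcript, Gata2 was at 152, Tal1 at 103, Cbfb at 90.2, Runx1 at 110.3, Myb at 108, Runx1t1 at 20.5 and Runx3 at 19.8 CPM. With a prior count of 0.5 the same 3 genes were nearest to Mitf and the same 3 to Runx1. At 17118964 to 20741399 counts a library, Cebpa and Gfi1 could not be compared.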
